A study of Mus musculus with 16 samples.

Results

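Chromatin accessibility was examined at 9 genes whose products sit on the surface of blood stem and progenitor cells, chosen by name: the stem cell markers Ly6a, Slamf1 and Procr, the progenitor markers Cd34 and Cd48, and the homing and adhesion genes Cxcr4, Itga4, Selplg and Cd44. They are 9 of 21911 protein-coding genes. Peaks of all 16 libraries were merged into 296215 regions, of which 167 lay in the 9 gene bodies or within 20 kb of them, and 98 of these held a peak in at least 4 libraries and entered the tests. ATAC-seq, in which the Tn5 transposase cuts open chromatin, had been run on sorted mouse bone marrow hematopoietic stem and progenitor cells (HSPCs) of 4 genotypes with 4 libraries each. WT mice carried floxed Ep300 without Cre, P300KO mice carried floxed Ep300 with the interferon-inducible Mx1-Cre, TET2KO mice carried floxed Ep300 with germline loss of Tet2, and P300KO_TET2KO mice carried Mx1-Cre, floxed Ep300 and germline loss of Tet2. All mice were C57BL/6, and all, controls included, had been injected with poly(I:C), the agent that switches Mx1-Cre on. Mx1-Cre acts in blood cells and also in other interferon-responsive tissues. Each library pooled cells of 2 age-matched mice of a genotype, and the methods place experiments 2 weeks after poly(I:C) unless another time is indicated, without naming these libraries. The question put to these data was whether loss of p300, of Tet2 or of both moved the accessibility of stem against progenitor surface genes and of homing genes.

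Ep300 encodes p300, an acetyltransferase that marks active enhancers, and Tet2 encodes an enzyme that oxidizes methylated cytosine, a mark often lost at active enhancers. Stem cells of the mouse bone marrow are recognized by SLAMF1 (CD150) without CD48, by the endothelial protein C receptor that Procr encodes, and, in C57BL/6 mice, by Sca-1, the product of Ly6a. CD34 appears as long-term stem cells turn into short-term stem cells and multipotent progenitors, and CD48 marks progenitors that have left the stem cell compartment. CXCR4, the receptor of CXCL12, integrin alpha 4 (Itga4), the selectin ligand PSGL-1 (Selplg) and the hyaluronan receptor CD44 hold the cells in the marrow or guide them back to it. Sca-1 was part of the sorting gate that the study describes for its HSPCs, so Ly6a is not an independent readout of the cells collected.

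Of the regions described, 7 are shown first, each as the 151 bases around its summit on the plus strand of mm10, read from the GRCm38.p6 reference of RefSeq. They are shown because their values by genotype are described in the text that follows. The Cd48 region 31.4 kb downstream and the Cxcr4 region are shown for where their peaks were listed, not as support for a difference. Capitals mark, on either strand, AGATAA or TGATAA for GATA factors, AGGAAGT or CGGAAGT for ETS factors, TGTGGTT or TGCGGTT for RUNX, CAACTG or CAACGG and also the strings TAACTG or TAACGG for MYB, and CAGATG or CAGCTG for E-box factors. STAT (TTCCNGGAA) and AP-1 (TGACTCA or TGAGTCA) strings were also searched.
Cd48 9.0 kb upstream of its start, chr1:171672974-171673124: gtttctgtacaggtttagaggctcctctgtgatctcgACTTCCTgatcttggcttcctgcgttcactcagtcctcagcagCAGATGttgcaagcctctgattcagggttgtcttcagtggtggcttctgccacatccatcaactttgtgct
Cd48 7.3 kb upstream of its start, chr1:171674664-171674814: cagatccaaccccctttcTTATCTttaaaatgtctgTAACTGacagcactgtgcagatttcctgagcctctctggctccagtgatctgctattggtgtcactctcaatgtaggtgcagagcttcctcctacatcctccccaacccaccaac
Cd48 31.4 kb downstream of its start, chr1:171713384-171713534: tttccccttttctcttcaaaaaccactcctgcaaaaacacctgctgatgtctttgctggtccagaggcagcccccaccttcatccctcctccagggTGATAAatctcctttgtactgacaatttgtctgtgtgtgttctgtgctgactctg
Cxcr4 10.9 kb upstream of its start, chr1:128603151-128603301: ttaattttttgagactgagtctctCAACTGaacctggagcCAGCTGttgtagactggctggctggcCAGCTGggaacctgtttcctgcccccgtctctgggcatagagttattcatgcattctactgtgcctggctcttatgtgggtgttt
Itga4 0.6 kb upstream of its start, chr2:79254796-79254946: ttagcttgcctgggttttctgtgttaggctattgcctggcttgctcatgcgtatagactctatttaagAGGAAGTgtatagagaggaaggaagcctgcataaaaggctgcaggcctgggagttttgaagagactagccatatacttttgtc
Cd44 49.4 kb downstream of its start, chr2:102852211-102852361: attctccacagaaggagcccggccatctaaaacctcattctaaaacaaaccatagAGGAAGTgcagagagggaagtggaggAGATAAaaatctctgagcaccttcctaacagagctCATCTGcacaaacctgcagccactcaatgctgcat
Cd44 12.7 kb upstream of its start, chr2:102914267-102914417: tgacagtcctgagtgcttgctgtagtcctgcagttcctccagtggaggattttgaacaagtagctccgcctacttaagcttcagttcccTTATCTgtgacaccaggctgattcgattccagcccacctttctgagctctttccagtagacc

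The Cd48 region 9.0 kb upstream held an ETS string and an E-box string, and the one 7.3 kb upstream held a GATA string and a MYB string. A GATA string was found in the Cd48 region 31.4 kb downstream and in the Cd44 region 12.7 kb upstream. The Cxcr4 region held 1 MYB and 2 E-box strings, of which both E-box strings read CAGCTG. The Itga4 region at the gene start held an ETS string, and the Cd44 region 49.4 kb downstream held a GATA, an ETS and an E-box string. Over all 98 tested regions of the 9 genes, GATA strings occurred in 19 regions (19.4%), against 11.2% of all 128335 tested regions in windows of the same length. The corresponding shares were 18.4% against 20.9% for ETS, 9.18% against 10.5% for RUNX, 17.3% against 16.4% for MYB, 23.5% against 23.7% for E-box, 1.02% against 0.513% for STAT and 1.02% against 5.43% for AP-1. These strings describe sequence and are not binding sites.

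The strength of a peak was expressed as its rank percentile, that is, its place by the authors' -log10 p within the list of its own library, with the strongest peak near the top of the scale and 0 where the library had no peak. The locus level of a gene was the mean percentile over its tested regions. The files give no read counts, so depth is unknown, and the number of peaks in a list (86039 to 137335) is the nearest measure of it. Labels separate the libraries into 2 deposit sets, replicates 1 and 2 (set 1, whose labels name a merged peak file) and replicates 3 and 4 (set 2). Nothing states what differed between them. The lists held 86039 to 110055 peaks in set 1 and 130610 to 137335 in set 2. A pair of libraries stood apart: 38.2% of the regions of WT replicate 1 and 25.9% of those of WT replicate 2 were seen in no other library, against 1.42% to 15.6% in the other 14, and WT replicate 1 alone lacked 9040 regions that all others had. Values without WT replicate 1 are therefore given beside the main differences. Peaks stood at the start sites of 6 of 7 HSPC markers (Kit, Cd34, Gata2, Meis1, Hlf and Mecom) in 16 of 16 libraries, with a lowest percentile of 87.5, and at that of Ly6a in 15. Among markers of other cells, Ms4a1 (B cell), Ly6g (neutrophil) and Ncr1 (NK cell) had no peak in any library, and Cd3e (T cell) had one in 6 libraries at a percentile of at most 18.1. Peaks in 16 of 16 libraries were also found at Cd5, Itgam, Hbb-bs, Epor, Cdh5 and Tie1. The lists had 1 of 4 T cell, 0 of 3 B cell, 1 of 2 myeloid, 0 of 2 NK cell and 2 of 4 endothelial and stromal genes in 16 of 16 libraries, and their part in the results was not tested.

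All 9 loci held accessible chromatin in every library. Promoter regions (within 1 kb of an annotated start) made up 24 of the 98 tested regions with a median percentile of 71.1, exonic regions 8 with 52.1, intronic regions 26 with 22.6 and intergenic regions 40 with 31.8. Peaks at 34 regions were present in 16 of 16 libraries, and 47 of the 167 were seen in 1 library only. Per 10 kb of window, tested regions ranged from 0.765 at Itga4 to 3.14 at Selplg. Several windows also take in neighbours whose regions cannot be assigned to one gene by position: Ly6i and the pseudogenes Gm8000 and Gm37042 at Ly6a, Mmp24 at Procr, A330023F24Rik at Cd34, A630035G10Rik at Cd48, Cerkl at Itga4, and Tmem119 and Coro1c at Selplg. Ly6a belongs to a family of near-identical genes, among which short reads can be misplaced, so its values are less certain than those of the other genes.

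Stem cell markers were taken first. At Ly6a (chr15:74994877-74998031, minus strand) the locus level was 31.4, 29.7, 49.9 and 49.6 in WT replicates 1 to 4 and 39.3, 36.5, 48.7 and 50.5 in P300KO. In TET2KO it was 19.6, 30.3, 50.3 and 51.0, and in P300KO_TET2KO 37.9, 36.2, 50.9 and 50.02. The libraries of set 2 lay close together in every genotype, and the spread was in set 1, where TET2KO replicate 1 was lowest. The strongest region of the window, 9.3 kb downstream at the pseudogenes Gm8000 and Gm37042 (chr15:74988274-74989656), stood between 90.9 and 96.7 in all 16 libraries. At the Ly6a start itself (chr15:74997802-74998393) the percentile was 56.1, 64.5 and 53.5 in WT replicates 2 to 4, no peak was called in WT replicate 1, and the other 12 libraries lay between 38.3 and 65.7. A weak region 0.9 kb upstream (chr15:74998703-74999195) was listed in 2 of 4 WT, 3 of 4 P300KO, 1 of 4 TET2KO and 3 of 4 P300KO_TET2KO libraries, and never above a percentile of 20.6.

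For Slamf1 (chr1:171767127-171801184, plus strand), which encodes CD150, the level was 26.3, 28.8, 40.4 and 40.5 in WT, 21.6, 19.6, 46.0 and 42.2 in P300KO, 24.5, 18.7, 40.8 and 35.9 in TET2KO and 26.5, 26.0, 40.6 and 39.9 in P300KO_TET2KO. All 4 genotypes overlapped. Its strongest region lay 48.8 kb downstream of the start, in intergenic sequence (chr1:171815592-171816587), with a mean percentile of 84.4 over the 16 libraries, and its start region (chr1:171766848-171767551) was listed in 15 of 16. The intergenic region 5.0 kb upstream (chr1:171761623-171762882) had percentiles of 83.9, 76.9, 78.2 and 80.8 in WT, 70.3, 74.1, 81.9 and 81.4 in P300KO, 63.5, 57.7, 79.1 and 80.0 in TET2KO and 66.5, 69.1, 78.0 and 73.8 in P300KO_TET2KO. The Tet2-null libraries of set 1 were the low ones. A second region 3.8 kb upstream (chr1:171763170-171763402) was listed in 5 of 8 libraries with Tet2 and in 1 of 8 without it.

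Procr (chr2:155751117-155755471, plus strand) encodes the endothelial protein C receptor. Its level was 61.6, 67.2, 74.5 and 70.5 in WT, 66.7, 64.0, 71.8 and 72.6 in P300KO, 67.2, 73.7, 73.0 and 73.5 in TET2KO and 67.6, 67.3, 73.6 and 74.3 in P300KO_TET2KO. The strongest region, 8.0 kb upstream (chr2:155742183-155743758, intergenic), stayed between 90.6 and 96.5 in all libraries. The region at the start (chr2:155750865-155752025) stood at 56.6, 65.2, 67.6 and 74.1 in WT, 61.7, 62.9, 73.1 and 68.3 in P300KO, 75.4, 77.9, 74.8 and 70.04 in TET2KO and 73.3, 76.0, 72.1 and 72.3 in P300KO_TET2KO. The Tet2-null libraries were the higher ones in set 1 (73.3 to 77.9 against 56.6 to 65.2), and in set 2 the groups overlapped.

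Of the progenitor markers, Cd34 (chr1:194938819-194961279, plus strand) hardly varied with genotype. Its level averaged 67.4 ± 7.2 (SD, n = 4) in WT and 67.2 ± 7.4 in P300KO, with 67.1 ± 7.4 in TET2KO and 68.1 ± 7.3 in P300KO_TET2KO. The strongest region lay 37.5 kb downstream, at the noncoding genes A330023F24Rik and Gm16897 (chr1:194976020-194977307). The region at the start (chr1:194938517-194939361) was strong in every list, at 94.9, 91.9, 92.7 and 93.8 in WT, 91.2, 90.7, 92.0 and 93.3 in P300KO, 87.5, 89.3, 92.2 and 91.2 in TET2KO and 90.2, 88.1, 92.2 and 93.8 in P300KO_TET2KO.

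Cd48 (chr1:171682009-171705258, plus strand) encodes a ligand of CD2 and CD244 on progenitors. The locus level was 45.9, 43.0, 50.4 and 48.1 in WT, 39.3, 26.9, 47.9 and 47.1 in P300KO, 35.0, 35.3, 43.7 and 47.7 in TET2KO and 36.2, 37.4, 41.4 and 40.8 in P300KO_TET2KO. Within each deposit set, the WT libraries were the highest and neither WT library overlapped a library of another genotype. Its start region (chr1:171680803-171682499, shared with A630035G10Rik) was at 73.3 to 74.8 in WT, 70.7 to 76.4 in P300KO, 64.3 to 75.7 in TET2KO and 72.2 to 80.4 in P300KO_TET2KO, and passed for neither loss (exact p = 0.31 for p300 and 0.88 for Tet2). The strongest region covers an exon 17.2 kb downstream (chr1:171698413-171699630).

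The regions of Cd48 with larger differences were distal. At the intergenic region 9.0 kb upstream (chr1:171672897-171673461) the percentile was 86.3, 86.5, 86.2 and 76.7 in WT and 89.2, 88.1, 88.1 and 84.2 in P300KO, but 62.5, 75.1, 69.5 and 83.4 in TET2KO and 61.7, 73.4, 62.5 and 67.3 in P300KO_TET2KO. Of the 8 libraries without Tet2, 7 were below all 8 libraries with it, and TET2KO replicate 4 was the exception. At the region 7.3 kb upstream (chr1:171674297-171675149) the values were 86.5, 71.6, 68.3 and 59.4 in WT, 48.2, 47.0, 53.8 and 61.6 in P300KO, 62.2, 64.3, 49.97 and 57.5 in TET2KO and 53.4, 42.9, 53.9 and 49.7 in P300KO_TET2KO. WT was the highest group there, and all 4 WT libraries were above all 4 of P300KO_TET2KO. A region 31.4 kb downstream (chr1:171713295-171713646), beyond the end of the gene, was listed in all 4 WT libraries at 77.8, 39.4, 61.0 and 17.5, in 3 of 4 P300KO libraries, in 1 of 4 TET2KO libraries and in 0 of 4 P300KO_TET2KO libraries.

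**Figure D1:**
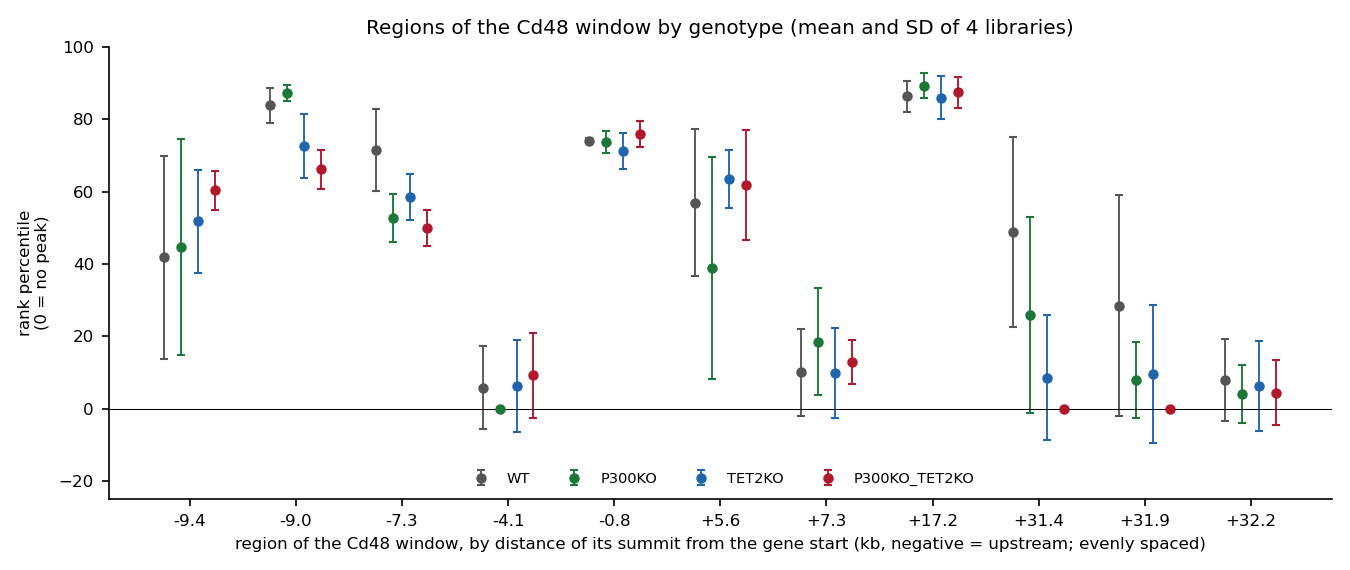
Mean rank percentile (y axis, 0 for no peak, bars 1 SD of 4 libraries) of the 11 tested regions around Cd48, ordered by the distance of their summit from the gene start in kb (x axis, evenly spaced), with one colour per genotype. At 9.0 kb upstream both Tet2-null genotypes sit lower, at 7.3 kb upstream WT is highest, at 31.4 kb downstream P300KO_TET2KO has no peak, and at the start 0.8 kb upstream the 4 genotypes overlap, with means of 71.4 to 75.9.

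Homing and adhesion genes came next. The level of Cxcr4 (chr1:128588199-128592293, minus strand) was 13.5, 46.8, 45.6 and 47.9 in WT, 33.9, 23.0, 32.7 and 39.4 in P300KO, 32.3, 31.3, 45.4 and 43.9 in TET2KO and 26.7, 34.6, 35.6 and 40.0 in P300KO_TET2KO. WT replicate 1 was far below the other WT libraries, which were above every p300-null library. The start region (chr1:128590696-128592775), also the strongest of the window, was alike in all groups, at 91.2 to 95.8. An intergenic region 10.9 kb upstream (chr1:128602819-128603364) had no peak in WT replicate 1 and stood at 55.1, 59.9 and 62.2 in the other WT libraries. It was listed in P300KO replicates 3 and 4 at 27.0 and 40.2, in TET2KO replicates 1, 3 and 4 at 20.1, 38.1 and 51.7, and in 0 of 4 P300KO_TET2KO libraries.

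Itga4 (chr2:79255426-79333123, plus strand) had levels of 19.2, 26.4, 45.9 and 41.4 in WT, 39.6, 30.6, 43.1 and 43.4 in P300KO, 35.2, 23.2, 49.1 and 39.6 in TET2KO and 30.4, 33.6, 44.1 and 47.5 in P300KO_TET2KO, and all groups overlapped. Its start region, the strongest of the window (chr2:79254538-79256223), stood at 90.8, 91.4, 92.1 and 91.4 in WT, 85.4, 86.1, 87.6 and 89.6 in P300KO, 87.7, 87.6, 91.5 and 89.8 in TET2KO and 85.7, 86.0, 88.5 and 89.8 in P300KO_TET2KO. All 8 p300-null libraries were below all 4 WT libraries. Of 2 other regions, the one 1.7 kb downstream (chr2:79256997-79257296, exon) had no peak in WT replicate 1 and lay between 48.6 and 81.8 elsewhere, and a weak intronic one 61.0 kb downstream (chr2:79316292-79316798) was listed in 2 of 8 libraries with p300 and in 5 of 8 without it.

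Selplg (chr5:113818536-113832644, minus strand) averaged 43.5 ± 10.01 (SD, n = 4) in WT and 39.3 ± 8.5 in P300KO, with 43.5 ± 7.8 in TET2KO and 42.7 ± 4.3 in P300KO_TET2KO. The region at its first start (chr5:113832388-113833007) had percentiles of 47.3, 56.0, 70.5 and 62.4 in WT, 31.5, 0, 29.6 and 53.8 in P300KO, 12.6, 35.5, 60.4 and 64.6 in TET2KO and 30.8, 1.2, 37.7 and 40.0 in P300KO_TET2KO. In set 2 all p300-null libraries were below all libraries with p300. The stronger region at a second annotated start, 2.2 kb further in (chr5:113829981-113831093), stood at 80.7 to 90.8 in all libraries. An intronic region 8.2 kb downstream (chr5:113824123-113824648) was listed in all 8 libraries of set 2 at 45.8 to 56.9, but in set 1 in TET2KO replicate 2 and both P300KO_TET2KO replicates only.

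Cd44 (chr2:102811141-102901665, minus strand), the longest gene of the set, had 20 tested regions. Its level was 29.7, 34.1, 44.0 and 43.6 in WT, 35.9, 33.0, 48.0 and 47.2 in P300KO, 33.5, 28.7, 44.5 and 46.4 in TET2KO and 36.6, 37.6, 51.9 and 48.3 in P300KO_TET2KO. In set 2 every p300-null library was above every library with p300. The start region (chr2:102900585-102901907), the strongest of the window, lay between 80.1 and 92.6. A region over an exon 49.4 kb downstream (chr2:102851934-102852669) stood at 44.3, 71.8, 74.5 and 79.9 in WT, 78.2, 74.7, 82.8 and 83.5 in P300KO, 58.4, 50.7, 68.8 and 78.0 in TET2KO and 74.5, 69.2, 83.1 and 79.5 in P300KO_TET2KO, so that within each deposit set and Tet2 background both p300-null libraries were above both others. The intergenic region 12.7 kb upstream (chr2:102914058-102914985) was at 70.1 to 84.7 in WT and 73.5 to 80.6 in P300KO, against 33.7, 0, 64.9 and 77.8 in TET2KO and 62.0, 40.0, 68.1 and 57.4 in P300KO_TET2KO. An intronic region 86.2 kb downstream (chr2:102815049-102815952) was at 81.6 to 90.4 in the 8 libraries with Tet2 and at 87.3 to 91.8 in the 8 without.

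**Figure D2:**
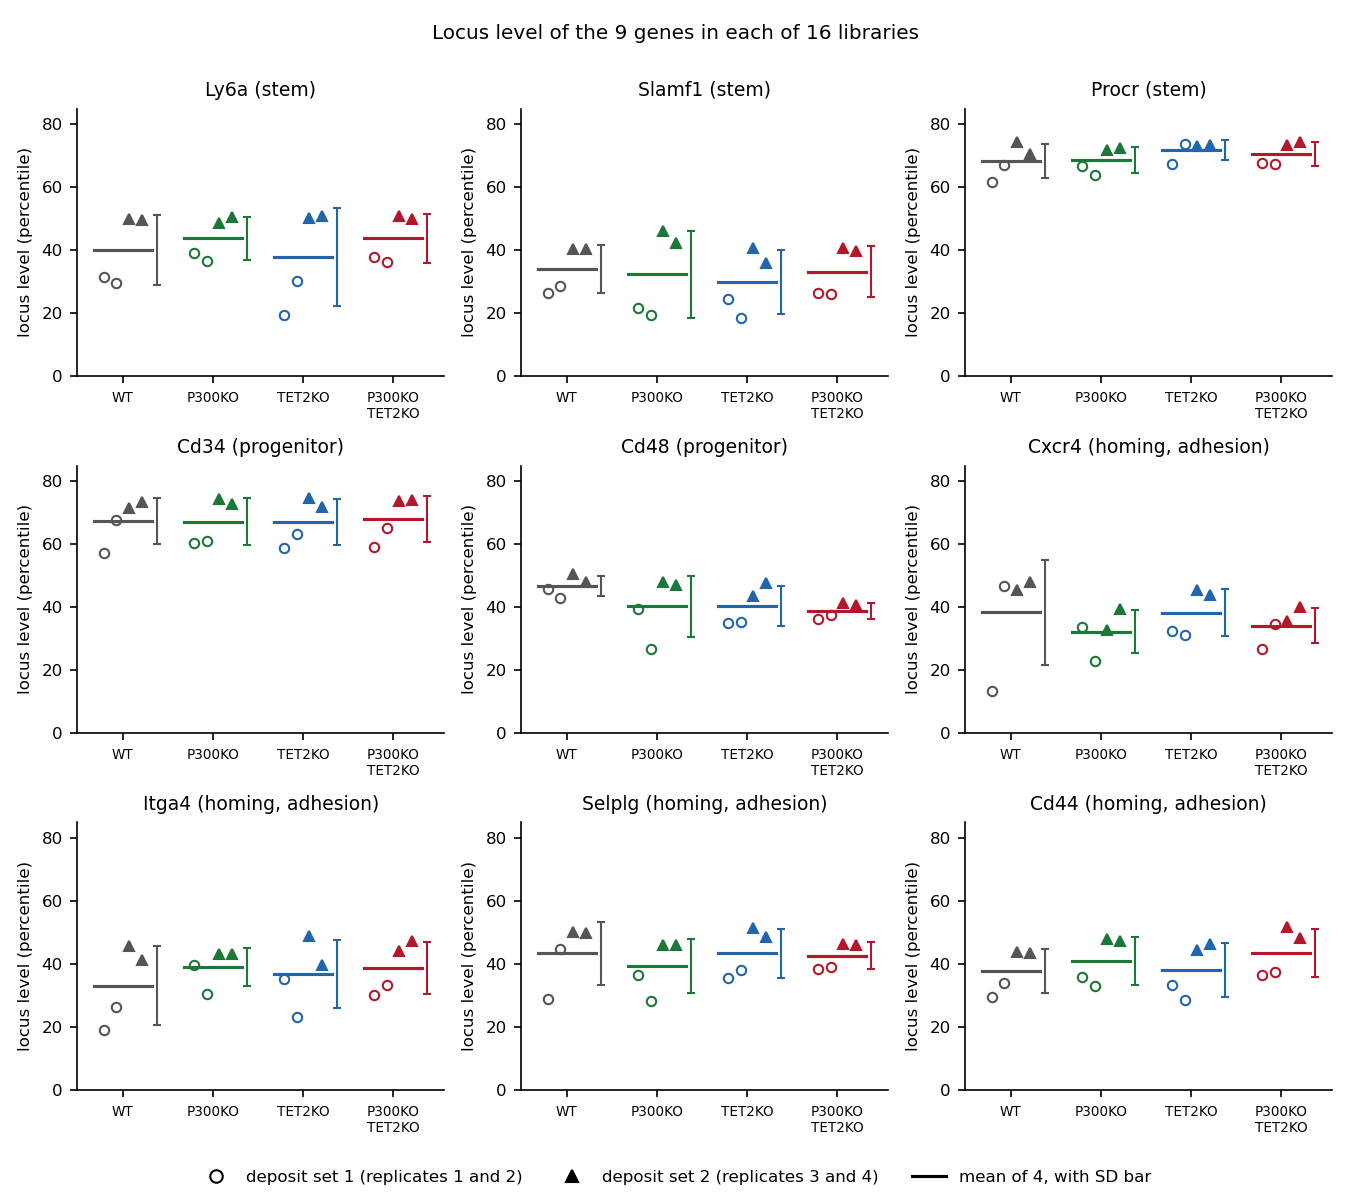
Locus level (mean rank percentile over a gene's tested regions, y axis) of the 9 genes in WT, P300KO, TET2KO and P300KO_TET2KO libraries (x axis), with open circles for deposit set 1, filled triangles for set 2, a line for the mean of 4 and a bar for the SD. The deposit sets are further apart than the genotypes for most genes, as at Ly6a, where set 1 lies between 19.6 and 39.3 and set 2 between 48.7 and 51.0.

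At each of the 9 genes the deposit sets differed by more than the loss of p300 or of Tet2 did. All 9 genes were higher in set 2, by 6.06 percentile points at Procr to 17.5 at Ly6a (two-sided exact permutation of set labels within genotype, adjusted p 0.0021 to 0.012 over all genes), and 98.7% of the 18990 protein-coding genes with a tested region were higher in set 2, 93.9% at an unadjusted p under 0.05. Genotypes were therefore compared within deposit sets: labels of p300 (or Tet2) were permuted within each set and background of the other gene, which allows no p below 0.00154.

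With loss of p300, the Cd44 and Ly6a levels were higher and the Cd48 level was lower. Cd44 was higher by 4.28 points (42.3 ± 7.2 against 38.1 ± 7.3, SD, n = 8 each; exact p = 0.0031) with the same difference in both deposit sets. Ly6a was higher by 4.77 points (exact p = 0.037), all of it in set 1 (9.72, against -0.17 in set 2). At Cd48 the difference was -4.00 points (39.6 ± 6.6 against 43.6 ± 5.8; exact p = 0.037), at -4.84 and -3.16 in the 2 sets. None passed after adjustment over all genes (adjusted p 0.11, 0.26 and 0.26), and no gene of the 18990 did. The 2 of 9 genes higher and 1 of 9 lower are to be read against 14.7% of all genes higher and 2.59% lower at the same threshold. Differences at the other 6 genes did not pass, from -5.09 at Cxcr4 (exact p = 0.25) to 4.04 at Itga4 (exact p = 0.15).

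Only Cd44 kept its call whichever library was left out, with differences of 3.68 to 4.87 (3.73 without WT replicate 1). With the strongest 50000 peaks of each list, with 50% of a region covered or with deposit sets ignored, none of the 3 passed. With the replicate number as a block Ly6a (exact p = 0.086) and Cd48 (exact p = 0.078) did not pass, and neither passed with regions seen in at least 1 library. With regions seen in 16 of 16 libraries Cd44 did not pass (0.81, exact p = 0.39) and Ly6a turned to -1.22 (exact p = 0.48). Cd48 also did not pass with a -log10 q of at least 2 (exact p = 0.36) or with windows of 5 kb (exact p = 0.93). The Ly6a call was lost without WT replicate 2, P300KO replicate 4 or P300KO_TET2KO replicate 1 or 2 (differences of 4.55 to 4.99, exact p 0.051 to 0.093), and it held without WT replicate 1 (4.99, exact p = 0.039). The Cd48 call was lost without WT replicate 1 (-3.65, exact p = 0.20) and without any 1 of WT replicates 2 and 3, P300KO replicates 2 and 4, TET2KO replicate 4 and P300KO_TET2KO replicates 1, 3 and 4 (differences of -4.36 to -2.44 over these 9 libraries). Without WT replicate 1, Cxcr4 passed at -9.25 points (exact p = 0.0077) and Selplg at -4.52 (exact p = 0.046), whereas without WT replicate 2 the differences shrank to -0.93 (exact p = 0.83) and -0.51 (exact p = 0.81). The Cxcr4 level averages 7 regions, among them the one 10.9 kb upstream, listed in 6 of 8 libraries with p300 and 2 of 8 without. That region entered the tests only through libraries with p300, so the Cxcr4 pass rests partly on it and is a description.

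Loss of Tet2 was followed by a higher Procr level, at 2.66 points (71.3 ± 3.3 against 68.6 ± 4.5, SD, n = 8 each; exact p = 0.025, adjusted p = 0.26), and no other gene passed. This 1 of 9 higher and 0 of 9 lower stand beside 12.9% of all genes higher and 2.05% lower. Cd48 had the largest shift in the other direction, at -3.93 points (exact p = 0.090), and passed without P300KO replicate 2 (-5.49, exact p = 0.0015). The Procr call was lost without WT replicate 1 (1.96, exact p = 0.12), WT replicate 4, TET2KO replicates 2 or 4, or P300KO_TET2KO replicate 1 (1.85 to 2.62 over these), and Procr also did not pass with the strongest 50000 peaks, with windows of 5 kb, with regions seen in 16 of 16 libraries or with deposit sets ignored. Selplg passed without WT replicate 2 (3.66, exact p = 0.022) and Cd44 without TET2KO replicate 2 (2.104, exact p = 0.042).

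Locus levels of most genes were shifted upward with either loss, by a median of 1.57 points for p300 and 1.64 for Tet2 over all 18990 genes. The levels were therefore also taken relative to the median gene of the same library, a scaling added after these values were seen. That median was 33.2 in WT replicate 1, 42.1 in WT replicate 2, 36.8 to 44.8 in the other libraries of set 1 and 53.7 to 55.8 in set 2. Neither the shift nor the centred differences were computed without WT replicate 1. On this centred scale loss of p300 left Cd44 higher (2.49, exact p = 0.045), while Cd48 (-5.79, exact p = 0.0015), Selplg (-4.31, exact p = 0.0015) and Cxcr4 (-6.87, exact p = 0.045) were lower and Ly6a did not pass (2.99, exact p = 0.23). That is 1 of 9 higher and 3 of 9 lower, beside 7.17% of all genes higher and 10.5% lower, and no adjusted p was below 0.076. The Cxcr4 call again rests partly on the region 10.9 kb upstream, which entered the tests only through libraries with p300. Loss of Tet2 left Cd48 (-5.75, exact p = 0.0077) and Slamf1 (-3.40, exact p = 0.049) lower, which is 0 of 9 higher and 2 of 9 lower beside 6.08% and 8.3% of all genes, and Procr did not pass (0.83, exact p = 0.52). Cd48 and Cd44 thus kept their direction with loss of p300 on both scales and passed on both with all libraries in. The centred Cd48 difference for p300 was -13.9 in set 1 with Tet2, where WT replicate 1 is. It was -1.97 in set 1 without Tet2, and -2.96 and -4.31 in set 2 with and without Tet2. For Tet2 it was -12.3 in set 1 with p300 and -0.36 in set 1 without p300, and -4.49 and -5.84 in set 2. As ranked, the Cd48 call for p300 was lost without WT replicate 1.

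**Figure D3:**
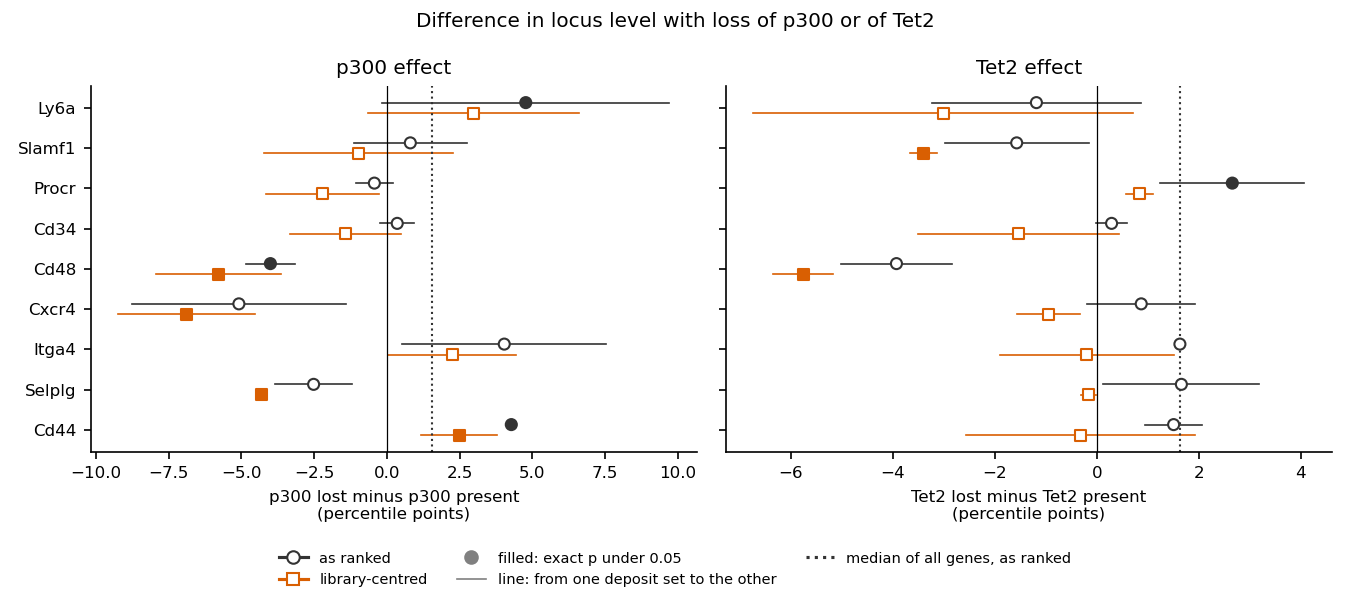
Difference in locus level (x axis, percentile points) between libraries that had lost and libraries that kept p300 (left) or Tet2 (right) for each gene, as ranked (circles) and relative to the median gene of each library (squares), with filled symbols for an exact p under 0.05, lines running from one deposit set's value to the other's and a dotted line at the median of all genes as ranked. Cd48 lies left of 0 in both panels and on both scales, and Cd44 lies right of 0 for p300 on both.

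No pair of genotypes was separated at any of the 9 genes in the 4 contrasts, where a p below 0.05 over the 70 regroupings requires, as here with 4 against 4, that the groups do not overlap (smallest p 0.0286). The share of all genes so separated was 0.448% higher and 0.126% lower for P300KO_TET2KO against TET2KO, 0.111% and 0.111% for P300KO against WT, 0.121% and 0.111% for TET2KO against WT, and 0.521% and 0.247% for P300KO_TET2KO against P300KO. The contrasts share libraries, and these regroupings did not keep to deposit sets, so the set difference is part of their spread. Within each set the WT libraries of Cd48 lay above those of every other genotype, as given before, and a p below 0.05 cannot be reached within sets with these numbers. The lowest p was 0.17, for Cd48 in TET2KO against WT (-6.49 points), and Cd48 was 6.57 points lower in P300KO than in WT (exact p = 0.26). An interaction between the losses passed at 0 of 9 genes (lowest exact p = 0.14, beside 2.33% of all genes).

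The number of regions with a peak moved at 2 genes. At Cxcr4 it was 5, 6, 7 and 8 in WT, 6, 4, 5 and 7 in P300KO, 5, 4, 7 and 9 in TET2KO and 3, 4, 5 and 5 in P300KO_TET2KO, a difference of -1.50 regions with loss of p300 (exact p = 0.028, adjusted p = 0.78). At Cd44 it was 12, 11, 17 and 20 in WT, 13, 12, 19 and 18 in P300KO, 14, 12, 21 and 20 in TET2KO and 16, 16, 19 and 20 in P300KO_TET2KO, a difference of 2.00 regions with loss of Tet2 (exact p = 0.012, adjusted p = 0.90). With loss of p300, 0 of 9 genes had more regions and 1 of 9 fewer, beside 3.48% and 1.93% of all genes. With loss of Tet2, 1 of 9 had more and 0 of 9 fewer, beside 2.76% and 2.23%.

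Single regions were tested in the same way. Of the 98 regions, 6 ranked higher (6.12%) and 5 lower (5.10%) with loss of p300, beside 7.24% and 4.47% of all 128335 regions. With loss of Tet2, 6 ranked higher (6.12%) and 9 lower (9.18%), beside 6.31% and 3.5%. No region in the genome passed after adjustment, and the lowest adjusted p among the 98 was 0.16 for p300 and 0.28 for Tet2, so the regions that follow are described at their unadjusted p. Of these calls, 3 of 11 for p300 and 4 of 15 for Tet2 were at regions listed in fewer than 4 libraries on the low side. Such regions entered the tests only through the side where they were high, so their calls are a description of where peaks were listed and support nothing further. No p is printed for them. They are Ly6a 0.9 kb upstream, Slamf1 3.8 kb upstream, Cd48 31.4 kb downstream, Cxcr4 10.9 kb upstream (for both losses), Itga4 61.0 kb downstream and Cd44 62.3 kb downstream. The shares called for p300 are near those of all regions, and so is the share higher with loss of Tet2.

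Loss of p300 was followed by a lower rank at the Itga4 start and at the first Selplg start. At Itga4 the difference was -2.97 points (87.3 ± 1.8 against 90.3 ± 1.8, SD, n = 8 each; exact p = 0.0031), and at Selplg it was -23.1 points (28.1 ± 18.6 against 51.2 ± 19.0; exact p = 0.0077). Without WT replicate 1 these were -3.04 and -24.2. The Cd48 region 7.3 kb upstream ranked lower by -13.7 points (51.3 ± 5.7 against 65.0 ± 10.9; exact p = 0.0077), or -11.8 without WT replicate 1. It was also lower with loss of Tet2 (-7.79, exact p = 0.023), a call lost without any 1 of TET2KO replicates 1 to 3 or P300KO_TET2KO replicate 2. The Cxcr4 region 10.9 kb upstream was listed in 6 of 8 libraries with p300 and 2 of 8 without, with mean percentiles of 35.9 ± 26.0 and 8.4 ± 15.9. It was listed in 5 of 8 libraries with Tet2 and 3 of 8 without. Both comparisons are only a description of where its peaks were listed.

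In the other direction, the Cd44 region 49.4 kb downstream ranked higher with loss of p300, by 12.4 points (78.2 ± 5.1 against 65.8 ± 13.2, SD, n = 8 each; exact p = 0.0015, the smallest the design can give). The difference was 17.9 in set 1 and 6.9 in set 2, and 8.94 without WT replicate 1. The Cd48 region 17.2 kb downstream ranked higher by 2.22 points (exact p = 0.025), which was lost without WT replicate 1 (2.03, exact p = 0.066), WT replicate 3, P300KO replicate 3 or P300KO_TET2KO replicate 2. The Itga4 region 1.7 kb downstream was higher by 15.01 points (exact p = 0.017), but by 7.66 without WT replicate 1, where it had no peak, and the call was lost without P300KO replicates 1 or 2, TET2KO replicate 2 or P300KO_TET2KO replicate 1 (exact p up to 0.24). Lower with loss of p300 was Selplg 9.4 kb upstream, a region inside Coro1c (-2.66, exact p = 0.045), a call lost without any 1 of 8 libraries. This Selplg region turned to 8.08 (exact p = 0.96) with 50% of the region covered. Itga4 61.0 kb downstream (9.85) and Ly6a 0.9 kb upstream (8.60) are only a description of where peaks were listed.

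With loss of Tet2, the Cd48 region 9.0 kb upstream ranked lower by -16.2 points (69.4 ± 7.58 against 85.7 ± 3.95, SD, n = 8 each; exact p = 0.0031). It was lower in both deposit sets (-19.4 and -13.1), and -16.3 without WT replicate 1. The Cd48 region 31.4 kb downstream was listed in 7 of 8 libraries with Tet2 and 1 of 8 without, which is only a description of where its peaks were listed. At Cd44 12.7 kb upstream the difference was -25.4 points (50.5 ± 25.0 against 75.9 ± 4.9; exact p = 0.0062), at -42.9 in set 1 and -7.95 in set 2, and -24.3 without WT replicate 1. The Slamf1 region 5.0 kb upstream was lower by -7.49 points (exact p = 0.0077), at -12.1 and -2.9 in the 2 sets, but turned to 2.12 (exact p = 0.99) with 50% of the region covered. The Cd34 start was lower by -2.04 (exact p = 0.020), at -3.4 and -0.7. Without WT replicate 1 the Slamf1 and Cd34 differences were -6.60 and -1.66. The Slamf1 region 3.8 kb upstream, listed in 5 of 8 libraries with Tet2 and 1 of 8 without, is likewise a description only.

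Regions that ranked higher with loss of Tet2 were the Procr start (7.78 points, 74.0 ± 2.5 against 66.2 ± 5.9, SD, n = 8 each; exact p = 0.017, at 14 in set 1 and 1.5 in set 2), the Cd44 region 86.2 kb downstream (3.18, exact p = 0.0046) and the Selplg region 8.2 kb downstream (16.6, exact p = 0.0046). The last was lost without WT replicate 1 or WT replicate 2 (exact p = 0.059 in each case). Leaving out WT replicate 1 changed the Procr start to 6.70 and the Cd44 region to 3.78, and both still passed. In all, 5 more Cd44 regions passed in one effect or the other, and 2 of them were singled out after their values were seen. An intronic region 72.3 kb downstream (chr2:102829298-102829544) stood at 91.8, 76.7, 85.7 and 78.9 in WT, 67.7, 70.8, 79.0 and 83.2 in P300KO, 54.3, 77.0, 73.8 and 75.5 in TET2KO and 56.4, 68.1, 59.9 and 69.0 in P300KO_TET2KO. It ranked lower with loss of Tet2 by -12.5 points (exact p = 0.0062), at -12.8 in set 1 and -12.2 in set 2, with -10.6 without WT replicate 1, and it passed whichever library was left out. The other was an exonic region 62.3 kb downstream (chr2:102839102-102839518), with a peak in 4 of 4 P300KO_TET2KO libraries at 15.6 to 43.1, in 1 of 4 TET2KO libraries and in 0 of 8 libraries with Tet2.

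**Figure D4:**
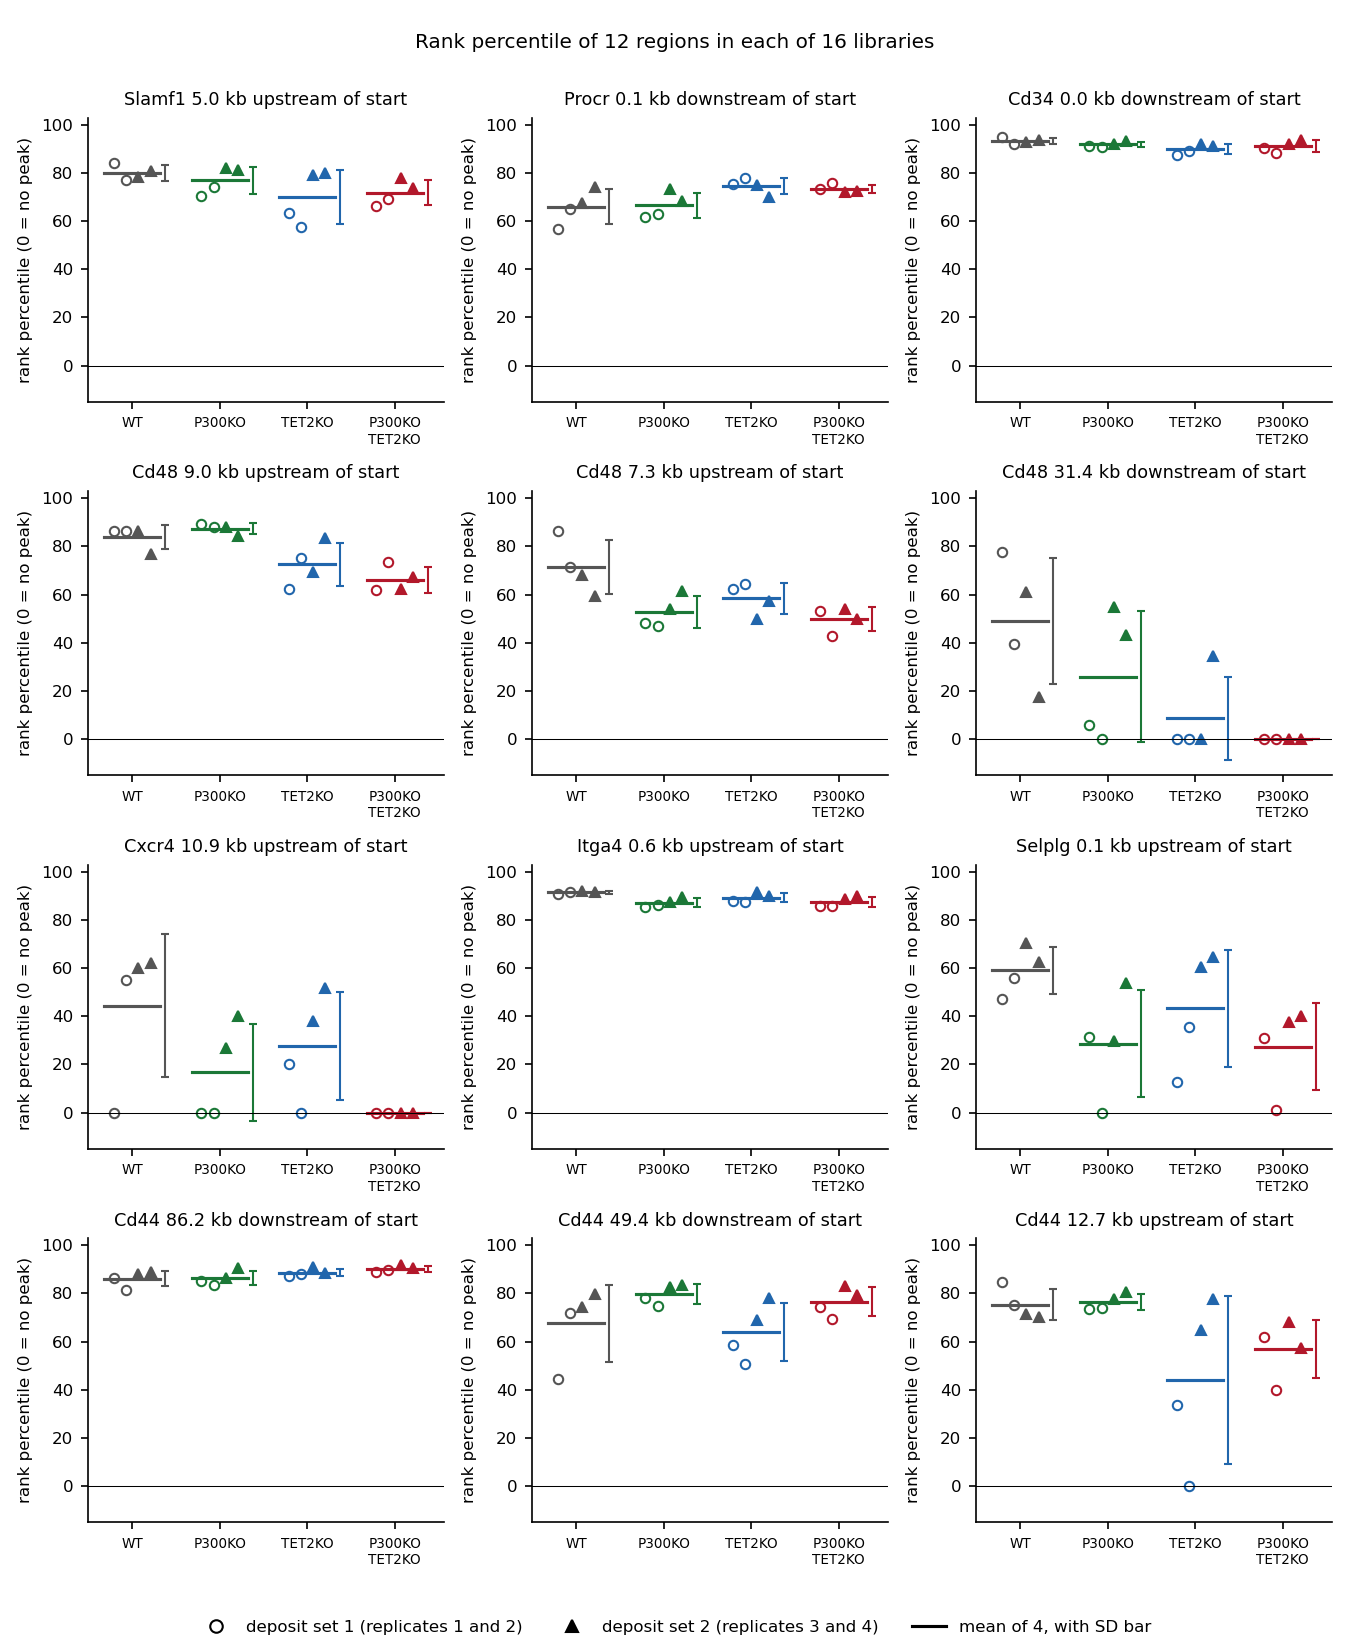
Rank percentile (y axis, 0 for no peak) of 12 named regions, each with a call for p300 or for Tet2 that held whichever 1 library was left out, in WT, P300KO, TET2KO and P300KO_TET2KO libraries (x axis), with open circles for deposit set 1, filled triangles for set 2, a line for the mean of 4 and a bar for the SD. All 8 p300-null libraries lie below the 4 WT libraries at the Itga4 start, and the Cd48 region 31.4 kb downstream and the Cxcr4 region 10.9 kb upstream, which entered the tests only through the side where they were high, are plotted as a description.

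An interaction between the losses passed at 3 of the 29 regions named here, beside 3.31% of all regions: the starts of Cd34 (2.56, exact p = 0.045) and Cd44 (-4.05, exact p = 0.029) and the Selplg region 9.4 kb upstream (5.99, exact p = 0.020).

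The contrast of stem with progenitor genes was summarized as the mean level of Ly6a, Slamf1 and Procr minus that of Cd34 and Cd48, as a description without a test. The score was -11.8, -13.4, -6.05 and -7.19 in WT replicates 1 to 4, -7.43, -3.95, -5.68 and -4.81 in P300KO, -9.79, -8.37, -4.45 and -6.28 in TET2KO and -3.70, -8.10, -2.57 and -2.74 in P300KO_TET2KO. Progenitor genes thus had the higher mean level in every library, by the most in WT and by the least in P300KO_TET2KO, and the genotypes overlapped. Means were -9.61 ± 3.54 (SD, n = 4) in WT and -5.47 ± 1.48 in P300KO, with -7.22 ± 2.34 in TET2KO and -4.28 ± 2.59 in P300KO_TET2KO. The difference with loss of p300 was 3.54 points, above 0 in each of the 4 pairs of matched groups, at 5.04 in set 1 and 2.04 in set 2, and 3.75 without WT replicate 1. It fell to 0.31 with the strongest 50000 peaks and to 0.57 with regions seen in 16 of 16 libraries, and was 5.85 with 50% of a region covered. For loss of Tet2 it was 1.79 points, above 0 in 3 of 4, and 1.99 without WT replicate 1, but -1.70 with windows of 5 kb, -0.013 with the strongest 50000 peaks and 0.42 with regions seen in 16 of 16 libraries. Libraries of one genotype and deposit set differed by an SD of 1.61. The score also rose from set 1 (-8.32 ± 3.41, SD, n = 8) to set 2 (-4.97 ± 1.66). Cd48 and Ly6a moved it with loss of p300, while Slamf1, Procr and Cd34 differed by less than 1 point. In these sorted cells taken in bulk, a smaller share of a cell type and lower accessibility in each cell cannot be told apart.

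**Figure D5:**
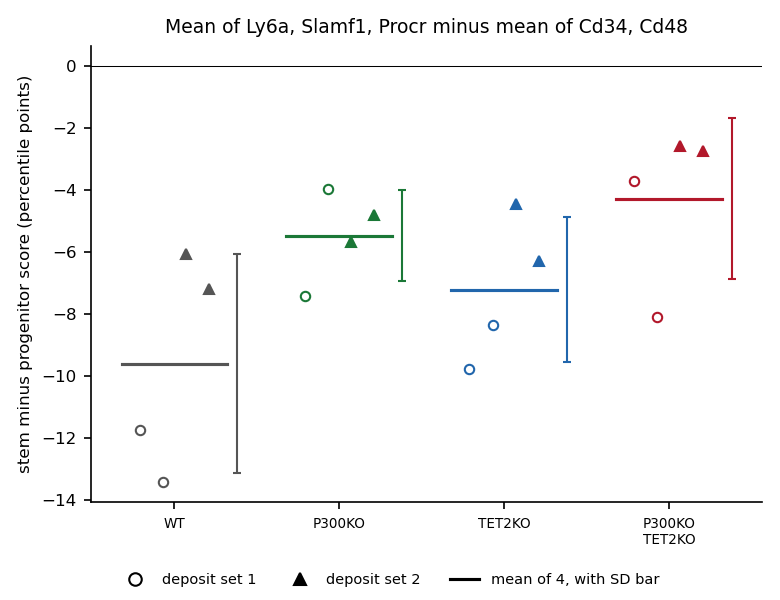
Stem minus progenitor score (y axis, percentile points) in WT, P300KO, TET2KO and P300KO_TET2KO libraries (x axis), with open circles for deposit set 1, filled triangles for set 2, a line for the mean of 4 and a bar for the SD. All 16 libraries lie below 0, the lowest are the 2 WT libraries of set 1 at -11.8 and -13.4, and the highest is P300KO_TET2KO replicate 3 at -2.57.

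A list of 30 further surface and homing genes of HSPCs was examined in the same way. With loss of p300, 8 of 30 had a higher level and 0 a lower one, beside 14.7% and 2.59% of all genes. Their median difference was 2.204 points, against 0.36 for the 9 genes and 1.57 for all genes. The 8 were S1pr1, a receptor of sphingosine 1-phosphate in egress (8.71, exact p = 0.0046), Ptprc or CD45 (6.62, exact p = 0.015), the Fc receptor Fcgr2b (6.49, exact p = 0.031), the beta 2 integrin Itgb2 (4.23, exact p = 0.037), the cytokine receptor Flt3 (3.59, exact p = 0.028), the adhesion molecule Esam (3.10, exact p = 0.015), Icam1 (2.94, exact p = 0.022) and the integrin Itga5 (2.83, exact p = 0.028). With loss of Tet2, 5 of 30 were higher and 0 lower, beside 12.9% and 2.05% of all genes, with a median of 2.14 points against 0.87 for the 9 genes and 1.64 for all genes. Among them were Itgb1 (7.88, exact p = 0.014), which pairs with integrin alpha 4, Cd63 (5.50, exact p = 0.014), Icam1 (3.59, exact p = 0.020) and Cd82 (3.29, exact p = 0.049). Relative to the median gene of each library the counts became 3 higher and 4 lower for p300, beside 7.17% and 10.5% of all genes. For Tet2 they became 3 higher and 1 lower, beside 6.08% and 8.3%. Kit, the stem cell factor receptor of the sorting gate, had differences of -0.37 (exact p = 0.78) and 1.98 (exact p = 0.14).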

How the data were processed

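Peak lists of 16 ATAC-seq libraries of sorted mouse HSPCs were used, 4 for each genotype. The authors trimmed reads with cutadapt 1.9.1, aligned them to mm10 with Bowtie2 2.2.6, removed duplicates, shifted ends for Tn5 and called peaks in each library with MACS2 2.1.0. The deposited lists give the −log10 p-value and −log10 q-value of each summit, both against the local background of the same library, so they were used only as ranks within a list. Summits of 1 interval counted once. Peaks were merged where they shared 1 bp, and regions were assigned to gene bodies of GENCODE M21 with 20 kb either side. GENCODE M21 and the RefSeq reference are both of GRCm38, which is mm10.

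Groups came from the labels. Differences were tested with two-sided exact permutation tests, adjusted by Benjamini-Hochberg over all protein-coding genes or all regions tested, and the code was tested on simulated data. Samples of a group are pools of 2 mice. The 9 genes, the gene lists and the tests were chosen with earlier results of these data known. Regions were named if they were the strongest of a gene, at its start, or among its 3 lowest p below 0.05. Results were recomputed with peaks of −log10 q 2 or more, with each list's strongest 50000 peaks, with 5 kb windows, 50% overlap, other region sets, single deposit sets, no sets, the replicate block and leaving out each library. Library centring, and the same alternatives for single regions, were added after the data were seen. Replicate numbers are not stated to mark shared mice or days. Deviations from genotype means correlated between same-numbered libraries (r of 0.19 to 0.49), but deviations from genotype and deposit set means did not (r of -0.13 to 0.069), so the numbers were not taken as pairs. No 2 libraries shared an identical peak. Python 3 with numpy, pandas and scipy was used. Values of 2 listed genes are not reported here.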

Additional observations from a re-analysis of the deposited data

Results flagged for a closer look

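Within 156 groups of 4 libraries examined (the 9 locus levels, the score and the 29 named regions), 12 had a library far from the other 3. The limit used is set to mark about 1 in 20 groups of normally spread values by chance, a rate that was not checked for ranks with many zeros. At the level of whole loci these were Procr in TET2KO replicate 1 (67.2, low) and Cxcr4 in WT replicate 1 (13.5, low). WT replicate 1 also had no peak (0) at the Ly6a start or at the Cxcr4 region 10.9 kb upstream, where the other WT libraries had one. WT replicate 4 was low at the Cd48 region 9.0 kb upstream (76.7), and TET2KO replicate 2 was high at the Procr region 8.0 kb upstream (93.6). The other 6 were regions at or near 0 in the other 3 libraries of the genotype: Ly6a 0.9 kb upstream in WT replicate 4 (9.32) and TET2KO replicate 4 (15.7), Slamf1 3.8 kb upstream in TET2KO replicate 4 (27.9), Cd48 31.4 kb downstream in TET2KO replicate 4 (34.5) and Itga4 61.0 kb downstream in WT replicate 3 (20.2) and TET2KO replicate 3 (17.1).

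The interaction test passed at 3 of 29 regions, with the limits given before. It was more positive without Tet2 at the Cd34 start (by 2.56 points) and at the Selplg region 9.4 kb upstream (by 5.99), and more negative without Tet2 at the Cd44 start (-4.05). None of these was adjusted for the 29 regions.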

How the results depend on the processing

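As reported, 2 genes were higher and 1 lower with loss of p300, beside 14.7% and 2.59% of all genes. With loss of Tet2, 1 was higher and 0 lower, beside 12.9% and 2.05%, and 0 had genotypes that did not overlap. Shares over all genes were computed only for these calls and with library centring, and for groups that do not overlap only as reported. The other counts below therefore show whether calls were kept, and cannot be set against all genes. With a −log10 q of at least 2, p300 had 0 lower and Tet2 2 higher (Procr and Cd34). With the strongest 50000 peaks, p300 had 0 higher and 0 lower with a score difference of 0.31, Tet2 had 1 higher (Cxcr4 in place of Procr) and 2 lower (Cd48 and Cd44, the latter reversed to -6.63) with a score difference of -0.013, and P300KO and WT did not overlap at 1 gene (Itga4). With 5 kb windows, p300 had 0 lower, Tet2 had 1 higher (Cd44 in place of Procr), and the Tet2 score difference reversed to -1.70. With 50% of a region covered, p300 had 0 higher and 0 lower with a score difference of 5.85, Tet2 had 2 higher (Procr and Cxcr4), and Cd48 alone (1 gene) did not overlap in P300KO against WT or TET2KO against WT. The Slamf1 region 5.0 kb upstream reversed there to 2.12 and the Selplg region 9.4 kb upstream to 8.08, both without a call. With regions seen in at least 1 library, p300 had 1 higher (Cd44) and 1 lower (Cxcr4 in place of Cd48). With regions seen in 16 of 16 libraries, p300 had 0 higher with a score difference of 0.57, Ly6a reversed to -1.22, Tet2 had 0 higher and 3 lower (Slamf1, Cd48 and Cd44, at -3.32), and Cd48 alone (1 gene) did not overlap in TET2KO against WT and P300KO_TET2KO against P300KO. Ly6a was -0.17 for p300 in deposit set 2 alone, where no p below 0.0556 is possible, so counts were not taken within a set. Without deposit sets, 0 genes passed in either direction of either effect. With the replicate block, p300 had 1 higher (Cd44, exact p = 0.016) and 0 lower (Ly6a and Cd48 lost), and Tet2 kept 1 higher (Procr, exact p = 0.023). With library centring, p300 had 1 higher and 3 lower, Tet2 0 higher and 2 lower, and 1 gene each did not overlap in P300KO against WT (Selplg) and TET2KO against WT (Slamf1). Leaving out 1 library gave 1 to 2 higher and 0 to 2 lower for p300, 0 to 2 higher and 0 to 1 lower for Tet2, and score differences of 2.99 to 4.09 and 1.24 to 2.34. The causes were not tested.

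Among other tested values, 35 of 380 changed sign under these alternatives and 15 of 704 on leaving out a library, with neither value passing. Of 7 alternatives for single regions, including single deposit sets in which no call is possible, the Cd48 region 9.0 kb upstream (Tet2), the Cd48 region 7.3 kb upstream (p300), the Procr start and the Cd44 region 86.2 kb downstream (Tet2) passed in 5, and the Itga4 start (p300) in 4, all with the same sign in 7 of 7. Depth is unknown, so a missing peak may be one not detectable at that library's depth, and weak regions and set 1 libraries are the least certain.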
